A study of Homo sapiens with 12 samples.

Results

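AKR1C1, AKR1C2, AKR1C3, AKR1B1, AKR1B10, SRD5A1, SRD5A3, HSD17B4, HSD17B6 and STS are enzymes that convert steroids or are close relatives of such enzymes. They were taken from the deposited table by gene name, and all 10 were found among its 58302 genes. RNA-sequencing libraries of 3 established human cell lines were compared, named BPH-1, DU145 and PC3, with 4 libraries per line. BPH-1 is a line of benign prostate epithelial cells, DU145 is a prostate cancer (PCa) line from a brain metastasis, and PC3 is a PCa line from a bone metastasis. The submitters list the genotype of every line as WT and name no treatment. All lines grew in the same medium, Dulbecco's modified Eagle's medium with fetal bovine serum, penicillin and streptomycin, and total RNA was extracted with TRIzol. Each line stands for its condition alone, so a property of PCa cannot be told apart from a property of the line. Nothing states whether the 4 libraries of a line came from separate cultures, and the p-values then measure only the spread between these libraries, which may be technical.

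Steroid hormones are made active or inactive by small chemical steps in the cells that receive them. In the prostate, testosterone is reduced to the stronger androgen dihydrotestosterone by steroid reductases of the SRD5A family, and enzymes of the aldo-keto reductase (AKR) family reduce keto groups of androgens, progestins and prostaglandins. Hydroxysteroid dehydrogenases such as HSD17B4 and HSD17B6 mostly run the opposite way and oxidize hydroxyl groups. Steroid sulfatase (STS) frees estrone and dehydroepiandrosterone from their sulfates, which circulate in blood as a reserve.

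The values are FPKM, read counts scaled for the length of the gene and for the depth of the library. Libraries held 12950665 to 16309561 counted reads. Lines were compared with limma on log2(FPKM + 1), and a gene was called when its Benjamini-Hochberg adjusted p over all genes tested was under 0.05. All 10 enzymes passed the filter on low values in each of the 3 comparisons. Log2 fold changes, each with its standard error (SE), are on this scale, on which the changes of genes with low FPKM come out smaller than their ratios.

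The lines were checked against marker genes. KRT8 and KRT18, keratins of simple epithelia, were expressed in every line, with a mean FPKM of KRT18 of 35.8 in BPH-1, 69.0 in DU145 and 29.5 in PC3. KRT5, KRT14 and TP63, which mark basal prostate epithelium, had a mean FPKM of 147, 203 and 12.9 in BPH-1 and of under 1 in both PCa lines. KRT15, the other gene of the basal list, had 1.31 in BPH-1, 0.270 in DU145 and 1.67 in PC3, and KRT19 of the epithelial list had 32.0, 22.7 and 232. The epithelial adhesion genes EPCAM and CDH1 had a mean FPKM of 60.8 and 28.4 in BPH-1, 9.10 and 0.786 in PC3, and 0.376 and 0.180 in DU145, so these 2 epithelial markers were nearly absent in DU145. Whether the libraries labelled DU145 hold that line could not be checked further, and their values are given under that label. KLK3, the prostate-specific antigen gene, was at 0 in all 12 libraries. DU145 libraries did not form a uniform group. PTPRC, a marker of blood cells, had an FPKM of 1.35 and 1.25 in DU145 replicates 1 and 2 and 0 in replicates 3 and 4, and DCN, a fibroblast marker, had 0 in replicates 1 and 2 and 0.373 and 0.214 in replicates 3 and 4. The BPH-1 libraries had PTPRC at 1.15 to 1.54, the level of DU145 replicates 1 and 2, and the PC3 libraries had it at 0. DCN was at 0 in every BPH-1 and PC3 library. The summed FPKM of the 8 blood and endothelial markers ranged from 6.29 to 9.39 in BPH-1, 5.19 to 10.4 in DU145 and 8.32 to 15.8 in PC3, and that of the 6 fibroblast markers from 1.98 to 3.73, 0.660 to 1.88 and 3.10 to 3.98. Their part in the results was not tested.

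Libraries also differed in how their values followed the GC content of genes. The slope of log2 FPKM, relative to the gene's mean over the 12 libraries, was computed over 12429 genes. Per 10 percentage points of GC it lay between -0.74 and -0.61 in BPH-1, at 0.70 and 1.06 in DU145 replicates 1 and 3, at -0.18 and -0.00 in DU145 replicates 2 and 4, and between -0.02 and 0.72 in PC3. A positive slope means that GC-rich genes read high in that library. GC content was taken over all annotated transcripts of a gene together. For 9 of the 10 enzymes it was 42.5% to 48.3%, under the median of 49.4% over these genes, and only AKR1B1 was above it with 55.0%. Each comparison was therefore repeated with the GC trend of each library divided out. For the 10 enzymes, the value is given where it changes a call or a direction. Genes of the other pathway lists and genes near the enzymes are given without corrected values, so their single calls may depend on the GC trend. Of those lists, 67 genes were called in PC3 against BPH-1, 61 in DU145 against BPH-1 and 55 in PC3 against DU145. With the trend divided out these numbers were 65, 70 and 66.

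AKR1C1, AKR1C2 and AKR1C3 lie in 1 cluster on chromosome 10 (GRCh38, chr10:4963253-4983283 on the plus strand, chr10:4987400-5018031 on the minus strand and chr10:5035354-5107686 on the plus strand). AKR1B1 (chr7:134442350-134459284, minus strand) and AKR1B10 (chr7:134527592-134541408, plus strand) lie near each other on chromosome 7. The sequences just before the RefSeq start sites (GRCh38.p14, 250 bases each, read 5′ to 3′ towards the gene) are printed for the AKR1C genes, so that the promoters of AKR1C1 and AKR1C2, whose levels followed each other, can be set beside that of AKR1C3, and for AKR1B1, because it differed most between lines. RefSeq entries for promoters were matched for 8 of the 10 enzymes, AKR1B10 and HSD17B6 being the others. Capitals mark CCAAT (or ATTGG, its reverse complement) and the GC box GGGCGG, the motifs found in these 4 windows.
AKR1C1, chr10:4963165-4963414, plus strand: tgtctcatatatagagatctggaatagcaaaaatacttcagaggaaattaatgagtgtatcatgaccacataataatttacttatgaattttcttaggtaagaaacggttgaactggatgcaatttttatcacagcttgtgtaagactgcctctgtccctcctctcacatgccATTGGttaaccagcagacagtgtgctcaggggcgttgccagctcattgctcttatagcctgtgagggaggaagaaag
AKR1C2, chr10:5003858-5004107, minus strand: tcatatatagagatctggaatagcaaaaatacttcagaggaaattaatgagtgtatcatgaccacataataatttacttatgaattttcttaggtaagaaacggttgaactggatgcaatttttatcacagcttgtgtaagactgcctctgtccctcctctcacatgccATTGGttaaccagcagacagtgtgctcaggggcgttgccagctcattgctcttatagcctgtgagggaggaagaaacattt
AKR1C3, chr10:5094164-5094413, plus strand: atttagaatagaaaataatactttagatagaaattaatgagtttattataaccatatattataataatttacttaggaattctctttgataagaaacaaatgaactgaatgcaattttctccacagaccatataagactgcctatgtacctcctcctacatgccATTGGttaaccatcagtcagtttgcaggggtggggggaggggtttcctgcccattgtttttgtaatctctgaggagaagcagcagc
AKR1B1, chr7:134459101-134459350, minus strand: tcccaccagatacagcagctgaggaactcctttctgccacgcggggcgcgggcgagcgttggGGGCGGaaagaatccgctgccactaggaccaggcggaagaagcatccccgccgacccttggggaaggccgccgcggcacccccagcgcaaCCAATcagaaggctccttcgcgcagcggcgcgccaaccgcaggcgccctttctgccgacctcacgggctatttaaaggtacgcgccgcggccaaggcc

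The AKR1C1 and AKR1C2 windows aligned over 246 bases and were the same at 245 of them (99.6%). The AKR1C3 window was 78.6% the same as that of AKR1C1 and 79.1% the same as that of AKR1C2. A window before another RefSeq start of AKR1C3 (chr10:5048531-5048780) was 76.8% and 77.2% the same as these. All of the AKR1C windows held CCAAT on the minus strand, its first letter 73 to 86 bases before the start, and had 0 to 2 CpG sites. The printed AKR1B1 window held CCAAT on the plus strand 98 bases before the start, a GC box 188 bases before it, 28 CpG sites and a GC content of 68.0%. Before another RefSeq start of AKR1B1 (chr7:134459240-134459489), the window held a GC box but no CCAAT, 12 CpG sites and a GC content of 50.8%. Among 35116 promoter windows of the same length, 32.0% held CCAAT, 42.6% held GGGCGG and 10.7% held TATAAA on either strand, and the median number of CpG sites was 11. TGACNNNGC, the core of the element that NRF2 binds, was found in 10.9% of all windows. Among the windows of the enzymes it was in that of SRD5A3 and in 1 of the 5 of STS, and in none of those of the AKR genes. TGANTCA, the AP-1 motif, was in 6.57% of all windows and in that of SRD5A3. A match of letters does not show that a factor binds there.

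AKR1C1 and AKR1C2 also share transcript sequence. Of the windows of 100 bases in AKR1C1 transcripts, 16.7% occurred in a transcript of another gene, and 23.1% of those of AKR1C2 did, against 1.75% for AKR1C3 and 0 for AKR1B1. With windows of 50 bases the shares were 28.6% for AKR1C1, 38.9% for AKR1C2, 4.53% for AKR1C3 and 5.45% for AKR1B1. How the authors counted reads that fit more than 1 gene is not given in the sources used here, so the split of reads between AKR1C1 and AKR1C2 is uncertain. The use of strand is not given either, and the locus of AKR1C2 overlaps the antisense gene AL391427.1 over 1893 bases, that of SRD5A3 overlaps SRD5A3-AS1 over 9126, and that of HSD17B4 overlaps FAM170A, on the same strand, over 6264.

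**Figure D1:**
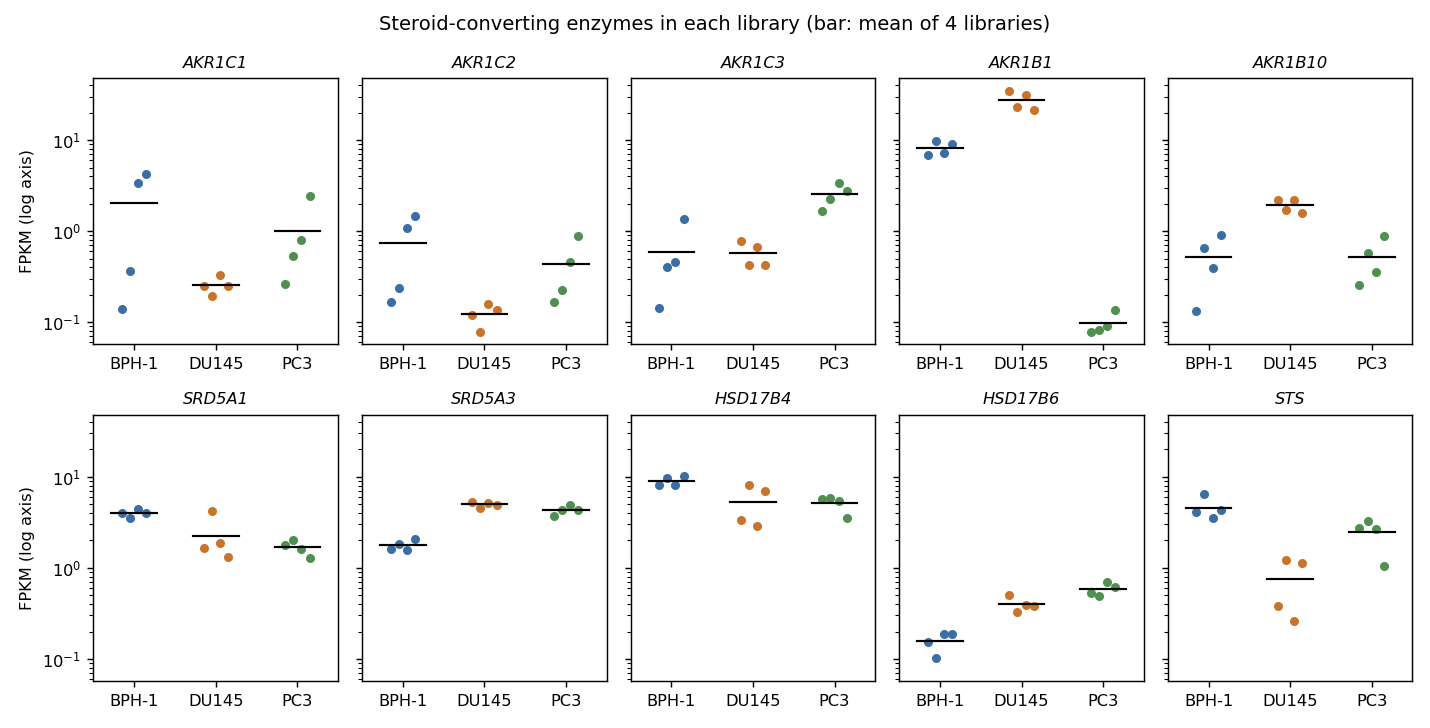
FPKM (log axis) of the 10 enzymes in each library of BPH-1, DU145 and PC3, with a bar at the mean of the 4 libraries. AKR1B1 spans the widest range between lines, from 0.0778 in a PC3 library to 35.1 in a DU145 library, and AKR1C1 has the widest range within a line, 30.9-fold among the BPH-1 libraries.

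In PC3 against BPH-1, 7 of the 10 enzymes were called. AKR1C3, SRD5A3 and HSD17B6 rose, where 27.1% of all genes tested were called higher, and AKR1B1, SRD5A1, HSD17B4 and STS fell, where 40.4% were called lower. In DU145 against BPH-1, 8 were called. AKR1B1, AKR1B10, SRD5A3 and HSD17B6 rose (30.3% of all genes) and AKR1C2, SRD5A1, HSD17B4 and STS fell (32.4%). In PC3 against DU145, AKR1C3 and STS rose (20.0%) and AKR1B1 and AKR1B10 fell (28.3%). With the GC trend divided out, 5 were called in PC3 against BPH-1 (3 higher, 2 lower), 6 in DU145 against BPH-1 (5 higher, 1 lower) and 5 in PC3 against DU145 (3 higher, 2 lower). The libraries of the lines did not overlap for 7 enzymes in PC3 against BPH-1 (64.4% of all genes tested), for 6 in DU145 against BPH-1 (59.5%) and for 4 in PC3 against DU145 (46.5%). These shares of all genes are high, so the number of enzymes called is no result about them as a group. The same shares stand beside the counts given below for the other pathway lists, none of which was tested as a group. The median log2 fold change of the 10 enzymes was -0.31, -0.26 and 0.10 in the 3 comparisons, against -0.13, -0.03 and -0.05 over all genes.

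**Figure D2:**
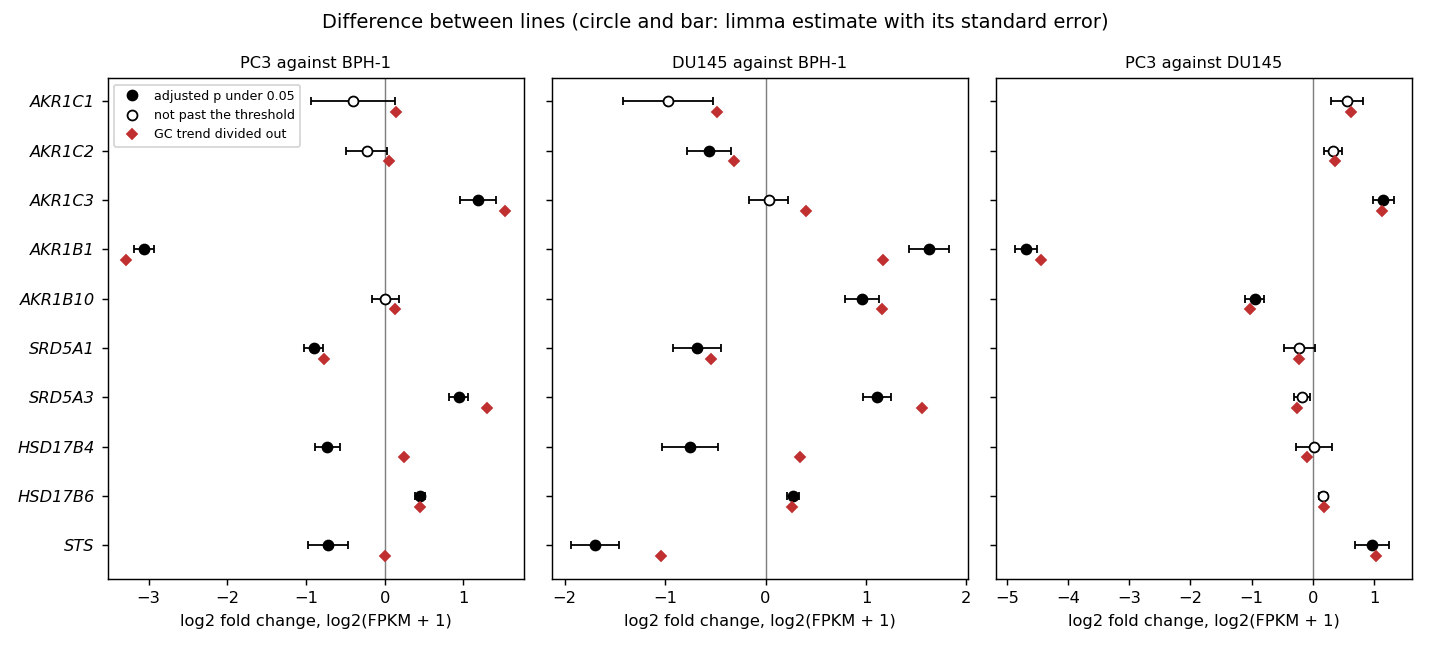
Log2 fold change of each enzyme on the log2(FPKM + 1) scale in 3 comparisons of lines, with the limma standard error as a bar, filled circles for an adjusted p under 0.05 and diamonds for the value with the GC trend of each library divided out. AKR1B1 in PC3 lies at -3.06 against BPH-1 and -4.69 against DU145, and HSD17B4 changes sign in each comparison when the GC trend is divided out.

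AKR1B1, aldose reductase, reduces glucose to sorbitol and also reduces prostaglandins and steroid-derived aldehydes. It had an FPKM of 6.94, 9.91, 7.19 and 8.98 in BPH-1 replicates 1 to 4. In DU145 it had 35.1, 23.4, 31.4 and 21.6. In PC3 it had 0.0778, 0.0827, 0.0908 and 0.136, which were 8 to 14 reads per library. The order was DU145, BPH-1, PC3, and no library of one line reached the range of another. The mean in PC3 was 85.2-fold lower than in BPH-1 (8.26 ± 1.43 against 0.0969 ± 0.0267, SD, n = 4 each), with a log2 fold change of -3.06, a standard error of 0.13 and a limma adjusted p of 1e-07. Against DU145 (27.9 ± 6.46, SD, n = 4) the mean in PC3 was 288-fold lower (log2 fold change -4.69, SE 0.18, limma adjusted p = 1.87e-07). DU145 was 3.38-fold above BPH-1 (log2 fold change 1.63, SE 0.20, limma adjusted p = 7.22e-05). The exact permutation test gave p = 0.0286 in all 3 comparisons, the smallest that 4 against 4 libraries allow. Per length of merged exons, AKR1B1 had the highest level of the 10 enzymes in DU145, with an FPKM of 60.5 ± 14.0 (SD, n = 4), and the lowest in PC3, with 0.210 ± 0.058 (SD, n = 4).

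The genes around AKR1B1 moved in both directions. Within 500000 bases of AKR1B1 and AKR1B10 lay 12 other genes, of which 6 passed the filter in some comparison. In PC3 against BPH-1, EXOC4 rose by a log2 of 0.56 (limma adjusted p = 0.0112), SLC35B4 by 0.73 (limma adjusted p = 0.0117) and the non-coding gene AC009275.1 by 1.08 (limma adjusted p = 1.09e-05). BPGM, which makes bisphosphoglycerate, fell by 0.65 (limma adjusted p = 0.00329), and CALD1, the actin-binding caldesmon, fell by 2.39 (limma adjusted p = 2.17e-05). AGBL3 had a log2 fold change of -0.02 (limma adjusted p = 0.619). CALD1 was low in DU145 too (FPKM 1.82 ± 1.45 against 11.3 ± 3.36 in BPH-1, SD, n = 4 each), where AKR1B1 was at its highest. In DU145 against BPH-1, EXOC4 rose as AKR1B1 did (0.60, limma adjusted p = 0.0263), BPGM fell (-1.12, limma adjusted p = 0.000937), and SLC35B4 and AGBL3 were not called.

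AKR1B10 reduces retinal and other aldehydes, and is close in sequence to AKR1B1. Its FPKM was 0.134, 0.650, 0.399 and 0.901 in BPH-1, 2.19, 1.72, 2.20 and 1.57 in DU145, and 0.255, 0.573, 0.358 and 0.894 in PC3. Every DU145 library was above every library of the other lines, while BPH-1 and PC3 overlapped over nearly their whole range. DU145 was 3.69-fold above BPH-1 (log2 fold change 0.96, SE 0.17, limma adjusted p = 0.000702) and PC3 was below DU145 (log2 fold change -0.95, SE 0.15, limma adjusted p = 0.000829). Between PC3 and BPH-1 the log2 fold change was 0.01 with a standard error of 0.17 (limma adjusted p = 0.974). These levels rest on 5 to 34 reads per library in BPH-1, 8 to 28 in PC3 and 51 to 86 in DU145, and 14.6% of the windows of 50 bases in AKR1B10 transcripts occurred in other genes, 178 of 268 of them in AKR1B15. The genes whose levels were most like those of AKR1B10 over the 12 libraries, among 11391 genes compared, were the histone gene H2BFS (Pearson r = 0.97), STK19 (0.97) and TPST1 (0.96). The 12 libraries share their lines, so a gene that differs between DU145 and the other lines has a high r.

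AKR1C3 makes testosterone from androstenedione and also acts on prostaglandins. Its FPKM was 0.145, 0.402, 0.462 and 1.36 in BPH-1, 0.775, 0.422, 0.669 and 0.423 in DU145, and 1.67, 2.28, 3.41 and 2.77 in PC3. All PC3 libraries were above all others, and the DU145 range lay inside that of BPH-1. PC3 was 4.27-fold above BPH-1 (2.53 ± 0.735 against 0.592 ± 0.53, SD, n = 4 each), with a log2 fold change of 1.18, a standard error of 0.23 and a limma adjusted p of 0.00136. Against DU145 (0.572 ± 0.178, SD, n = 4) PC3 was 4.43-fold higher (log2 fold change 1.15, SE 0.17, limma adjusted p = 0.000548). DU145 and BPH-1 had a log2 fold change of 0.03 with a standard error of 0.19 (limma adjusted p = 0.907). With the GC trend divided out, PC3 stayed above BPH-1 (1.53, limma adjusted p = 0.000695) and above DU145 (1.13, limma adjusted p = 0.0113). The 3 genes most like AKR1C3 were the lipid kinase PIK3C2B (Pearson r = 0.96), the methyltransferase ICMT (0.95) and RAB3D (0.95), a small GTPase of secretory vesicles. Each was higher in every PC3 library than in any other, which follows from their choice by likeness to AKR1C3 over these same libraries.

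AKR1C1 inactivates progesterone. In BPH-1 it had an FPKM of 0.139, 0.367, 3.39 and 4.28, a 30.9-fold span among 4 libraries of 1 line. DU145 had 0.251, 0.194, 0.330 and 0.251, and PC3 had 0.260, 0.535, 0.793 and 2.43. The lines overlapped in each pair, and no comparison was called. PC3 against BPH-1 had a log2 fold change of -0.40 (SE 0.53, limma adjusted p = 0.519), DU145 against BPH-1 of -0.97 (SE 0.45, limma adjusted p = 0.0854) and PC3 against DU145 of 0.56 (SE 0.26, limma adjusted p = 0.107). The log2 fold change of PC3 against BPH-1 had the other sign once the GC trend was divided out (0.14, limma adjusted p = 0.83). BPH-1 replicate 1 was below all other libraries, replicate 2 was inside the PC3 range, and replicates 3 and 4 were above all libraries of the other lines. Without BPH-1 replicate 1 or 2 the difference of DU145 from BPH-1 was called (-1.33, limma adjusted p = 0.0189, and -1.25, limma adjusted p = 0.0423), and without PC3 replicate 1 that of PC3 from DU145 (0.75, limma adjusted p = 0.0397).

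AKR1C2 inactivates dihydrotestosterone by reducing it to androstanediol. Its FPKM was 0.167, 0.239, 1.08 and 1.47 in BPH-1, 0.119, 0.0788, 0.160 and 0.136 in DU145, and 0.165, 0.227, 0.456 and 0.893 in PC3. The same libraries were high as for AKR1C1, and the ratio of AKR1C1 to AKR1C2 FPKM per length of merged exons was between 0.645 and 2.43 over the 12 libraries. DU145 was below BPH-1 (log2 fold change -0.56, SE 0.22, limma adjusted p = 0.046) with no overlap of libraries. The call was lost without BPH-1 replicate 3 or 4 or any single DU145 replicate (limma adjusted p between 0.0711 and 0.122), and with the GC trend divided out (-0.31, limma adjusted p = 0.173). PC3 against BPH-1 had a log2 fold change of -0.23 (SE 0.26, limma adjusted p = 0.447), which was 0.059 with the GC trend divided out (limma adjusted p = 0.859). PC3 libraries were all above those of DU145, with a log2 fold change of 0.33, a standard error of 0.14 and a limma adjusted p of 0.0752. That difference was called without PC3 replicate 1 (0.42, limma adjusted p = 0.0334), on log2(FPKM + 0.1) (1.08, limma adjusted p = 0.044) and with voom on the recovered reads (1.54, limma adjusted p = 0.0432).

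**Figure D3:**
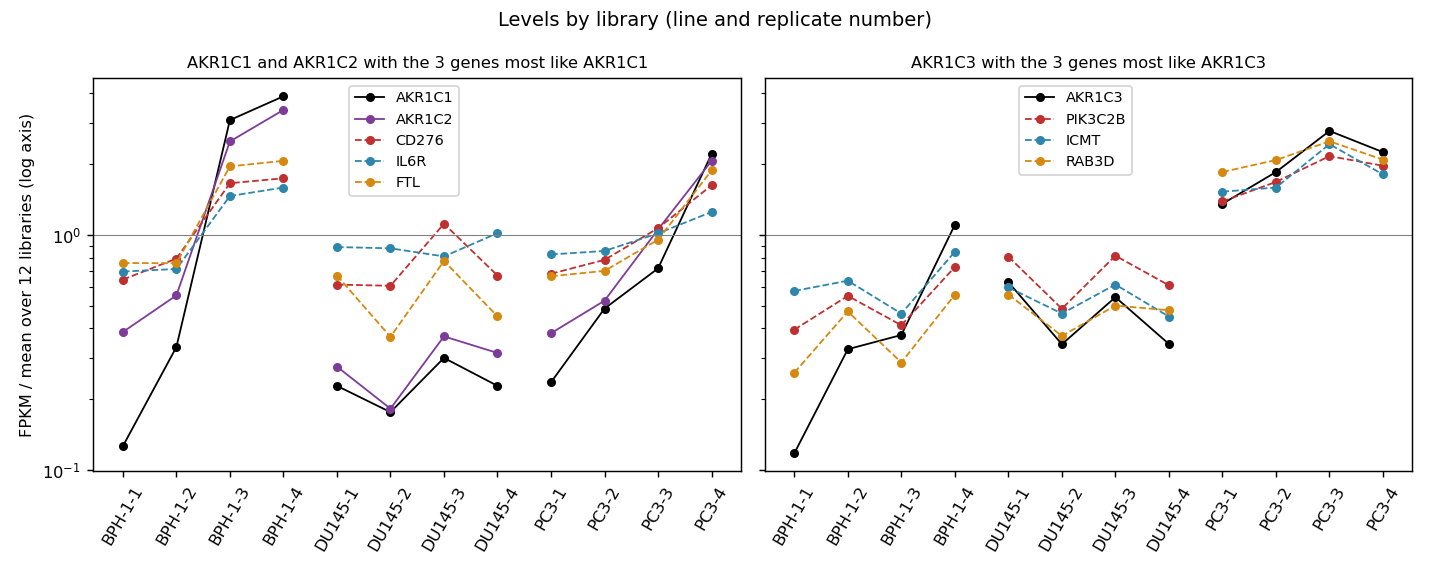
FPKM in each of the 12 libraries divided by the gene's mean over them (log axis), for AKR1C1 and AKR1C2 with the 3 genes most like AKR1C1 (left) and for AKR1C3 with the 3 genes most like it (right). AKR1C1, AKR1C2, CD276, IL6R and FTL are high in BPH-1 replicates 3 and 4 and in PC3 replicate 4, while AKR1C3 is high in all PC3 libraries.

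The spread of AKR1C1 within BPH-1 and within PC3 was shared by other genes. The 3 genes most like it over the 12 libraries were CD276, an immune checkpoint molecule (Pearson r = 0.93), IL6R, the interleukin-6 receptor (0.93), and FTL, the ferritin light chain (0.92). FTL had an FPKM of 964, 962, 2485 and 2623 in BPH-1 replicates 1 to 4, and of 847, 893, 1211 and 2387 in PC3. NQO1, the quinone reductase, had 8.25, 11.2, 31.1 and 31.2 in BPH-1 and 14.8, 14.4, 16.9 and 30.5 in PC3. In both lines the libraries with the highest FTL and NQO1 were those with the highest AKR1C1 (BPH-1 replicates 3 and 4, PC3 replicate 4). FTL was chosen for its likeness to AKR1C1 over these same libraries, and NQO1 after its values were seen. The match of FTL and NQO1 with AKR1C1 therefore follows from how they were chosen. Of the 21 NRF2 targets and regulators listed, 16 were higher in BPH-1 replicates 3 and 4 than in 1 and 2. In PC3, 13 were highest in replicate 4 and 4 were lowest there, among them NFE2L2, the gene of NRF2 itself, and TXNRD1. These libraries were picked by their AKR1C1 level, and the share of all genes with the same patterns was not computed. The numbers are therefore no result about NRF2 genes as a group. In DU145, NQO1 was at 119 to 170 and AKR1C1 at 0.194 to 0.330. NRF2 is the transcription factor of the response to oxidants, and its part in these levels was not tested. Over the 12 libraries, which share their 3 lines, Pearson r was 0.99 between AKR1C1 and AKR1C2 and 0.31 between AKR1C1 and AKR1C3. Within lines of 4 libraries each, r between AKR1C1 and AKR1C3 was 0.80 in BPH-1, 0.57 in DU145 and 0.56 in PC3.

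Within 500000 bases of the AKR1C genes lay 26 other genes, of which 4 passed the filter in some comparison. MANCR, a non-coding RNA, rose in PC3 against BPH-1 (log2 fold change 1.07, limma adjusted p = 0.000969) and against DU145 (1.32, limma adjusted p = 0.000503), as AKR1C3 did. AL365356.5 rose in the same comparisons (1.09, limma adjusted p = 0.00289, and 1.52, limma adjusted p = 0.000112). NET1, an activator of RhoA, was lower in DU145 than in BPH-1 (log2 fold change -1.90, limma adjusted p = 0.000536) and had a log2 fold change of -0.03 in PC3 against BPH-1 (limma adjusted p = 0.922). AKR1E2, another aldo-keto reductase, was at 0 in all BPH-1 libraries, and at no more than 5 reads in a PC3 library. In DU145 its FPKM was 2.69 ± 0.722 (SD, n = 4). Levels of MANCR and AL365356.5 were low, with a mean FPKM of at most 2.60 in any line.

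SRD5A1 reduces testosterone to dihydrotestosterone, and its best-known relative SRD5A2 had at most 3 reads in any library. SRD5A1 had an FPKM of 4.00, 3.57, 4.41 and 3.96 in BPH-1, 1.65, 4.20, 1.89 and 1.31 in DU145, and 1.79, 2.04, 1.62 and 1.28 in PC3. PC3 libraries were all below BPH-1 libraries, and DU145 replicate 2 alone of its line was at the level of BPH-1. PC3 was 2.37-fold lower than BPH-1 (1.68 ± 0.319 against 3.98 ± 0.345, SD, n = 4 each), with a log2 fold change of -0.90, a standard error of 0.12 and a limma adjusted p of 0.000158. With the GC trend divided out it was -0.77 (limma adjusted p = 0.000205). DU145 against BPH-1 had a log2 fold change of -0.68 (SE 0.24, limma adjusted p = 0.032). This call was lost without any one of the libraries except DU145 replicate 2 (limma adjusted p between 0.0502 and 0.085) and with the GC trend divided out (-0.54, limma adjusted p = 0.0571). The exact permutation test of DU145 against BPH-1 gave p = 0.114. Between PC3 and DU145 the log2 fold change was -0.22 (SE 0.25, limma adjusted p = 0.513).

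SRD5A3 reduces polyprenol to dolichol, the lipid carrier for N-glycosylation, and has also been assigned steroid reductase activity. Its FPKM was 1.62, 1.82, 1.56 and 2.1 in BPH-1, 5.33, 4.5, 5.16 and 4.90 in DU145, and 3.76, 4.33, 4.90 and 4.29 in PC3. Both PCa lines were above BPH-1 in every library, and they overlapped each other. PC3 was 2.43-fold above BPH-1 (log2 fold change 0.94, SE 0.12, limma adjusted p = 8.79e-05) and DU145 2.80-fold (log2 fold change 1.11, SE 0.14, limma adjusted p = 0.000109). With the GC trend divided out the differences were 1.30 and 1.56 (limma adjusted p = 5.63e-05 and 0.000648). PC3 and DU145 differed by -0.17 (SE 0.13, limma adjusted p = 0.334). SRD5A1 and SRD5A3 moved in opposite directions in PC3 against BPH-1, and their levels per length of merged exons were 5.16 ± 0.446 and 2.09 ± 0.283 in BPH-1 and 2.18 ± 0.413 and 5.07 ± 0.547 in PC3 (FPKM, SD, n = 4 each).

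HSD17B4 is a peroxisomal enzyme that oxidizes estradiol and shortens very-long-chain and branched fatty acids. It had an FPKM of 8.18, 9.79, 8.05 and 10.1 in BPH-1, 3.34, 8.23, 2.88 and 6.99 in DU145, and 5.69, 5.80, 5.43 and 3.49 in PC3. DU145 replicates 1 and 3 were below all PC3 libraries, and replicates 2 and 4 above all of them. PC3 was below BPH-1 (log2 fold change -0.73, SE 0.16, limma adjusted p = 0.00244) and so was DU145 (-0.75, SE 0.28, limma adjusted p = 0.0399). In the GC-corrected values neither was lower: the log2 fold change was 0.25 in PC3 (limma adjusted p = 0.0883) and 0.34 in DU145 (limma adjusted p = 0.0295), so the direction against BPH-1 depends on that correction. PC3 against DU145 had 0.02 (SE 0.30, limma adjusted p = 0.962). The DU145 call was also lost without any single BPH-1 library or without DU145 replicate 1 or 3 (limma adjusted p between 0.0613 and 0.113). The libraries with the highest GC slopes, DU145 replicates 1 and 3 and PC3 replicate 4, were the 3 with the lowest HSD17B4. The part of GC content in the result was not tested beyond the corrected values.

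HSD17B6 oxidizes androstanediol back to dihydrotestosterone, the reverse of the AKR1C2 step. Its FPKM was low in all lines, at 0.153, 0.103, 0.190 and 0.189 in BPH-1, 0.509, 0.325, 0.394 and 0.380 in DU145, and 0.531, 0.487, 0.693 and 0.621 in PC3. No library of either PCa line fell into the BPH-1 range. PC3 was 3.68-fold above BPH-1 (log2 fold change 0.45, SE 0.06, limma adjusted p = 8.85e-05) and DU145 2.54-fold (log2 fold change 0.27, SE 0.06, limma adjusted p = 0.00205). The reads behind these values were 8 to 15 per library in BPH-1, 26 to 42 in DU145 and 34 to 49 in PC3. PC3 against DU145 had a log2 fold change of 0.17 (SE 0.07, limma adjusted p = 0.0759), which was called in 1 fit over all 3 lines (limma adjusted p = 0.0279) and with the GC trend divided out (0.19, limma adjusted p = 0.0371).

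STS had an FPKM of 4.08, 6.54, 3.51 and 4.27 in BPH-1, 0.379, 1.23, 0.258 and 1.12 in DU145, and 2.77, 3.30, 2.69 and 1.04 in PC3. All DU145 libraries were below BPH-1 and 3 of the 4 PC3 libraries lay between the lines, while PC3 replicate 4 was inside the DU145 range. The 3 libraries with the lowest STS were DU145 replicates 1 and 3 and PC3 replicate 4, those with the highest GC slopes, as for HSD17B4. DU145 was 6.16-fold lower than BPH-1 (0.747 ± 0.5 against 4.6 ± 1.33, SD, n = 4 each), with a log2 fold change of -1.70, a standard error of 0.24 and a limma adjusted p of 0.00019. It stayed lower with the GC trend divided out (-1.04, limma adjusted p = 0.000423). PC3 was below BPH-1 (log2 fold change -0.72, SE 0.25, limma adjusted p = 0.027), but with the GC trend divided out the log2 fold change was -0.0023 (limma adjusted p = 0.991), and the call was lost without BPH-1 replicate 2 (-0.57, limma adjusted p = 0.0744) or 4 (-0.74, limma adjusted p = 0.0506). PC3 was above DU145 (log2 fold change 0.97, SE 0.28, limma adjusted p = 0.0177), with 1.04 once the GC trend was divided out (limma adjusted p = 0.000286). That call was lost without DU145 replicate 1 (0.87, limma adjusted p = 0.0534) or PC3 replicate 2 (0.85, limma adjusted p = 0.0513).

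**Figure D4:**
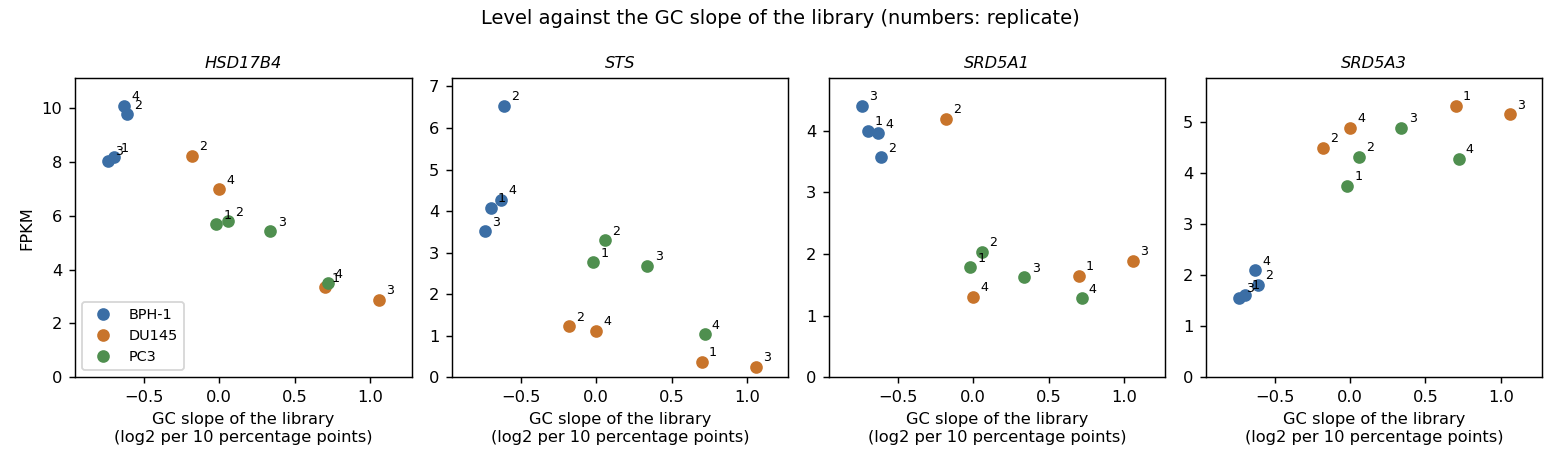
FPKM of HSD17B4, STS, SRD5A1 and SRD5A3 (from 0) against the GC slope of each library in log2 units per 10 percentage points of GC, with replicate numbers beside the points. HSD17B4 and STS are lowest in the 3 libraries with the highest slopes (0.70 and 1.06 in DU145, 0.72 in PC3). DU145 replicate 2, with a slope of -0.18, lies among the BPH-1 libraries for HSD17B4 and below them for STS. The slopes of the BPH-1 libraries are -0.74 to -0.61.

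The enzymes that make steroids from cholesterol were mostly absent. Of 15 such genes 10 had at most 7 reads in any library, among them STAR, CYP11A1, CYP17A1, HSD3B1, HSD3B2 and CYP19A1, with 0 reads for HSD3B1 and HSD3B2 in all 12 libraries. The 5 tested were electron donors, carriers and a sterol transport protein. CYB5A, which assists CYP17A1, rose in PC3 against BPH-1 (log2 fold change 1.03, limma adjusted p = 3.27e-05), and so did POR. FDX1, an electron donor of mitochondrial cytochromes, rose in DU145 against BPH-1 (0.94, limma adjusted p = 0.000238), as did CYB5A. In PC3 against DU145, POR and FDXR rose and FDX1 fell. Of the nuclear receptors for steroids, ESR1 had a mean FPKM of 0.315 in BPH-1 and 0 in every library of both PCa lines, and NR3C1, the glucocorticoid receptor, fell in PC3 against BPH-1 (log2 fold change -1.64, limma adjusted p = 0.000375). NR3C2 rose in PC3 against BPH-1 (0.48, limma adjusted p = 0.000851), so of 5 receptors tested there 2 rose and 2 fell. In DU145 against BPH-1, 1 of 2 tested fell, and in PC3 against DU145 2 of 4 rose.

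Other hydroxysteroid dehydrogenases were tested for 11 of 16 genes. In PC3 against BPH-1, 4 rose and 7 fell, in DU145 against BPH-1 2 rose and 6 fell, and in PC3 against DU145 3 rose and 1 fell. HSD17B14, which oxidizes estradiol in the cytosol, had the largest rise in both PCa lines against BPH-1 (log2 fold change 2.21 in PC3, limma adjusted p = 1.57e-07, and 2.45 in DU145, limma adjusted p = 1.02e-06). HSD17B12, which mainly elongates fatty acids, had the largest fall in both (-1.68 and -1.80, limma adjusted p = 0.000147 and 0.000305). In PC3 against DU145 the largest changes were those of DHRS9 (0.82) and HSD17B11 (-1.03). Of 7 other aldo-keto reductases 3 were tested in each comparison, with none called in PC3 against BPH-1, 3 higher in DU145 than in BPH-1 and 3 lower in PC3 than in DU145. AKR1E2 changed most in both comparisons with DU145 (1.86 and -1.83), and AKR1C4 and AKR1D1, the liver members, had at most 5 reads in any library.

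Of the 16 genes for sulfation and glucuronidation 7 were tested in each comparison. In both PCa lines against BPH-1 4 rose and 1 fell, and in PC3 against DU145 2 rose and 2 fell. SUMF1, which activates sulfatases including the STS protein, rose in PC3 (log2 fold change 1.38, limma adjusted p = 2.49e-05). PAPSS2, which makes the sulfate donor, rose in DU145 (2.03, limma adjusted p = 6.96e-05) and was lower in PC3 than in DU145 (-1.17, limma adjusted p = 0.00332). The falls against BPH-1 were those of SULT1A1 in PC3 (-0.22, limma adjusted p = 0.00317) and PAPSS1 in DU145 (-0.44, limma adjusted p = 0.0328). UGT1A1 rose in PC3 against DU145 (0.99, limma adjusted p = 0.000702). UGT2B7, UGT2B15 and UGT2B17, which attach glucuronic acid to androgens, had at most 4 reads in any library. Of 10 steroid hydroxylases 4 were tested, of which 1 rose and 2 fell in PC3 against BPH-1, 2 rose and 2 fell in DU145 against BPH-1, and 1 rose and 2 fell in PC3 against DU145. CYP24A1, which breaks down vitamin D, had 0 reads in all PC3 libraries, against a mean FPKM of 31.4 for DU145 and 8.80 for BPH-1, the same order of lines as AKR1B1. CYP27A1 rose in PC3 against BPH-1 (0.98, limma adjusted p = 1.75e-05) and against DU145 (1.33, limma adjusted p = 5.45e-06). In DU145 against BPH-1, CYP1A1 rose most (1.90, limma adjusted p = 0.000127) and CYP1B1, which hydroxylates estradiol, fell most (-1.53, limma adjusted p = 0.00158).

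The prostaglandin enzymes, with which AKR1B1 and AKR1C3 share substrates, showed 5 genes higher and 3 lower of 11 tested in PC3 against BPH-1, 4 higher and 5 lower of 10 in DU145 against BPH-1, and 5 higher and 2 lower of 11 in PC3 against DU145. PTGS1 fell in PC3 against BPH-1 (log2 fold change -3.10, limma adjusted p = 5.36e-08) and CBR1 rose (1.15, limma adjusted p = 0.00528). PTGS2, the inducible cyclooxygenase, fell in DU145 (-3.16, limma adjusted p = 8.5e-07), where its FPKM was 0.0197 ± 0.00851 (SD, n = 4), and rose in PC3 against DU145 (2.53, limma adjusted p = 0.00112). CBR1 was also the largest rise in DU145 against BPH-1 (2.04, limma adjusted p = 0.000747). PTGR1 was lower in PC3 than in DU145 (-2.17, limma adjusted p = 2.33e-05). Of the polyol partners of AKR1B1, sorbitol dehydrogenase SORD was called in no comparison (log2 fold change between -0.30 and 0.05, limma adjusted p of 0.131 or more), KHK rose in PC3 against BPH-1 (1.01, limma adjusted p = 7.33e-05) and against DU145, and TKFC rose in both PCa lines against BPH-1 and was lower in PC3 than in DU145.

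Genes of dolichol synthesis and use, the pathway of SRD5A3, were all tested. Of 13, 3 rose and 5 fell in PC3 against BPH-1, 5 rose and 3 fell in DU145 against BPH-1, and 1 rose and 4 fell in PC3 against DU145. DHDDS, a subunit of the enzyme that builds the polyprenol substrate of SRD5A3, rose in PC3 (log2 fold change 1.11, limma adjusted p = 0.00248), and its partner NUS1 fell in PC3 (-0.61, limma adjusted p = 0.00454) and in DU145 (-1.59, limma adjusted p = 0.000266). ALG6 had the largest fall in PC3 (-1.19, limma adjusted p = 8.36e-05), and DPM3 rose most in DU145 (1.47, limma adjusted p = 0.000306) and was lower again in PC3 than in DU145 (-1.44, limma adjusted p = 0.00059). Of 15 peroxisomal beta-oxidation genes, the pathway of HSD17B4, 8 rose and 3 fell in PC3 against BPH-1, 4 rose and 5 fell in DU145 against BPH-1, and 5 rose and 3 fell in PC3 against DU145. CRAT, carnitine acetyltransferase, rose in DU145 (log2 fold change 3.99, limma adjusted p = 2.56e-07), and ABCD3 fell in both against BPH-1 (-1.77 and -2.54, limma adjusted p = 0.000124 and 6.93e-06). In PC3 against DU145, CRAT fell most (-1.60, limma adjusted p = 8.67e-05).

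Of 21 NRF2 targets and regulators, 8 rose and 5 fell in PC3 against BPH-1, 10 rose and 1 fell in DU145 against BPH-1, and 3 rose and 11 fell in PC3 against DU145. Among all genes tested, 27.1% rose and 40.4% fell in PC3 against BPH-1, and 30.3% and 32.4% in DU145 against BPH-1. In PC3 against DU145 the shares were 20.0% and 28.3%. The list was not tested as a group. NQO1 was higher in DU145 than in BPH-1 (log2 fold change 2.95, limma adjusted p = 0.000133) and lower in PC3 than in DU145 (-2.90, limma adjusted p = 1.54e-05). AKR1B10 had the same directions, and a link between NRF2 and AKR1B10 was not tested. ABCC3 rose most in both PCa lines against BPH-1 (2.60 and 3.25, limma adjusted p = 2.47e-07 and 5.38e-07), SLC7A11 fell most in PC3 (-2.35, limma adjusted p = 0.000129), and FTL was the gene that fell in DU145 (-1.19, limma adjusted p = 0.0223). FTH1, the ferritin heavy chain, rose most in PC3 against DU145 (1.22, limma adjusted p = 0.00603).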

How the data were processed

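The members and the gene lists were chosen with earlier results of these data known. The authors deposited 1 table of normalized values for 58302 genes on GRCh38. The header does not name the unit. As deposited by the authors, the values were FPKM computed with a gene length made by adding up its separate GENCODE 29 exons, overlapping ones included, since 93.2% to 94.3% of low values of protein-coding genes per library are then whole reads to within 0.05 of a read (for 263 genes no length was found, and they were left out). From this, each library's depth was recovered (12950665 to 16309561 reads). The submitters' processing notes name CASAVA 1.8, HISAT2 2.1.0 and edgeR without their roles. The counting program, strand setting and filters are not given in the sources used here. Libraries were made with a NEBNext Ultra kit.

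Because the table holds FPKM and not counts, limma 3.58.1 (R 4.3.3, intensity trend) was fitted to log2(FPKM + 1), each fit holding the 2 lines compared. A gene was tested when 4 or more libraries had the FPKM of 10 reads at median depth and all libraries held 15 reads or more together. Calls are at an adjusted p under 0.05. Exact permutation tests of the difference in means were two-sided. The scripts were tested on simulated data. Levels are compared between genes on FPKM per merged exon length. Counts of reads carry counting error, and libraries of a line differed by more than that.

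All 10 enzymes are named in each comparison. Of each other list, the genes called with the largest rise and fall are named, plus genes needed to say that a list is near 0. Genes near the AKR1C and AKR1B genes that passed the filter are named, as are the 3 genes most like AKR1C1, AKR1C3 and AKR1B10 (Pearson r of log2(FPKM + 1), mean of at least 100 reads). Marker lists are given by level. Some genes that this rule names are not reported here. NQO1 by library, SORD, POR, FDXR and further values of listed genes stand beside this rule and were chosen after their values were seen. Alternatives were another pseudocount, other filters and scalings, voom on recovered reads, the GC trend of each library divided out (a natural spline, 5 degrees of freedom, fitted to genes of 50 reads or more), 1 fit over 3 lines, a replicate block and leaving out each library. Python 3.11.15 with numpy 2.4.6, pandas 2.3.3 and matplotlib 3.10.9 was used.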

Additional observations from a re-analysis of the deposited data

Results flagged for a closer look

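HSD17B4 in PC3 replicate 4 had an FPKM of 3.49, set apart from the other PC3 libraries by Dixon's criterion at 95%. It was the only such library among 30 groups of 4 (10 enzymes in 3 lines), and chance alone gives this in about 5% of groups.

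The changes of PC3 and of DU145 against BPH-1 differed for 4 enzymes by the direct comparison of PC3 with DU145, in which the BPH-1 libraries cancel. The difference was 1.15 for AKR1C3, -4.69 for AKR1B1, -0.95 for AKR1B10 and 0.97 for STS on the log2(FPKM + 1) scale, with limma adjusted p = 0.000548, 1.87e-07, 0.000829 and 0.0177. AKR1B1 moved in opposite directions in the PCa lines. Without DU145 replicate 1 or PC3 replicate 2 the difference for STS was 0.87 or 0.85, with limma adjusted p = 0.0534 or 0.0513.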

How the results depend on the processing

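Over the 3 comparisons, 533 values of single enzymes were recomputed under the alternatives. Of these 470 kept their direction and side of the threshold, 34 lost their call, 8 gained one and 21 changed sign. AKR1B1, SRD5A3, AKR1C3 in PC3, AKR1B10 in DU145, and HSD17B6 against BPH-1 kept their calls under every alternative in which they were tested, as did STS in DU145 and SRD5A1 in PC3 against BPH-1. With the GC trend divided out, HSD17B4 changed sign (0.25 in PC3 and 0.34 in DU145 against BPH-1, -0.092 between PC3 and DU145), as did AKR1C1 (0.14) and AKR1C2 (0.059) in PC3 against BPH-1. This correction also removes any difference between cells that follows GC content. With no filter on low values, STS in PC3 (adjusted p = 0.06), and AKR1C2 (0.109), SRD5A1 (0.059) and HSD17B4 (0.0784) in DU145 against BPH-1 lost their calls in limma. With upper-quartile scaling STS in PC3 (0.0621), SRD5A1 (0.0554) and HSD17B4 (0.0625) in DU145 did. The other changes of sign were in values near 0 that were not called: AKR1B10 in PC3 against BPH-1 with the same summed FPKM (-0.082) and without single libraries (-0.13 to 0.12), AKR1C3 in DU145 against BPH-1 with the same summed FPKM (-0.056) and without single libraries (-0.11 to 0.24), and, in PC3 against DU145 without single libraries, SRD5A1 (-0.36 to 0.034) and HSD17B4 (-0.18 to 0.23). Causes were not tested.

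The number of enzymes called in DU145 against BPH-1 was 8, but 5 with no filter on low values and 5 to 7 when a library was left out. In PC3 against DU145 it was 4, but 2 with the stricter filter, which removed AKR1B1 and AKR1B10, and 3 to 6 without single libraries. In PC3 against BPH-1 it was 7, but 5 with the stricter filter, which left 7 enzymes tested, and 6 or 7 without single libraries. The numbers with the GC trend divided out were 5, 6 and 5 in PC3 and DU145 against BPH-1 and between PC3 and DU145. With a replicate block 7, 7 and 4 enzymes were called in the 3 comparisons, the call lost being SRD5A1 in DU145 against BPH-1 (limma adjusted p = 0.0519). Same-numbered libraries of different lines had correlations of -0.655 to 0.515 in their deviations from the line means. These values were not corrected for the GC slopes of the libraries, so they cannot decide whether the numbers pair the libraries. Rescaling to the same summed FPKM moved the median log2 fold change of all genes from -0.13 to -0.28 in PC3 and from -0.03 to -0.16 in DU145 against BPH-1, and the share of calls that were higher from 40.2% to 30.2% and from 48.4% to 38.6%. No 2 libraries of a line agreed within counting noise (chi-square per gene 17.3 to 215), so none was counted as a duplicate.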
